A study of Homo sapiens with 6 samples.

Results

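The genes described here encode the laminin chains and the integrin subunits, taken as every protein-coding gene of the deposited count table with the symbol of a laminin alpha, beta or gamma chain or of an integrin alpha or beta subunit. They number 34 of the 28862 genes listed, 12 for laminin chains and 22 for integrin subunits. The cells were SH-SY5Y, an adrenergic, neuron-like line from a human neuroblastoma, and messenger RNA was sequenced from 6 libraries. In the control group 3 libraries came from cells given a control plasmid, and in the other group 3 libraries were labelled SMN1 overexpression. The groups carry no other difference in the labels, with the vector, its promoter and the time after delivery not given in the sources used here. Nothing says that replicates were cultured separately, and p-values then cover only the spread from library to library, which may be technical.

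Laminins are cross-shaped secreted proteins, each a trimer of an alpha, a beta and a gamma chain, that form the sheet-like scaffold of basement membranes. The trimer is named by the numbers of its chains, and the alpha chain carries the main sites that cells bind. Integrins are the cell surface receptors for laminins and other matrix proteins, each a pair of an alpha and a beta subunit, and they tie the matrix to the actin cytoskeleton through adaptor proteins. In developing and regenerating peripheral neurons, laminin bound by integrins with the beta1 subunit promotes the growth of axons.

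The series compares SMN1 overexpression with a control plasmid, but SMN1 was lower in the libraries labelled with it. SMN1 encodes the survival motor neuron protein. Its level was 20, 20.4 and 19.6 CPM (reads scaled to library size with TMM factors) with the control plasmid and 14.8, 16.6 and 16.6 CPM under the SMN1 label, or 20 ± 0.432 and 16 ± 1.08 CPM (SD, n = 3) with no overlap (log2 change -0.32, edgeR quasi-likelihood adjusted p = 9.40e-05). SMN2 is a near-identical copy of SMN1, so reads may be split between them, and it was lower too (log2 change -0.30, edgeR adjusted p = 0.0031). Every direction below is therefore between libraries as labelled. Libraries held 30379242 to 40275498 reads. Of the genes tested 56.2% were called at an adjusted p of at most 0.05, with 28.0% higher and 28.2% lower under the SMN1 label.

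Most markers of the line were present. Of 11 adrenergic neuroblastoma markers 10 were tested, 5 of them higher and 5 lower, or 6 higher and none lower after the length and GC correction described below. The 11 summed to 25923 to 27689 CPM with the control plasmid and 33320 to 34603 CPM under the SMN1 label. Most of these sums lay in CHGA (13926 and 15440 CPM) and CHGB (7761 and 13386 CPM), both called higher, so the sums mainly reflect these genes. The transcription factor gene PHOX2A stood at 196 and 150 CPM in the control and SMN1-labelled groups (log2 change -0.39, edgeR adjusted p = 3.67e-09). After the length and GC correction PHOX2A was not called (log2 change -0.04, edgeR adjusted p = 0.371). TH, which encodes the first enzyme of catecholamine synthesis, was at 0.169 and 0.0201 CPM. The summed level of 7 leukocyte markers was 14.7 to 16.4 CPM with the control plasmid and 9.88 to 12 CPM under the SMN1 label, most of it CORO1A. The pan-leukocyte gene PTPRC was at 0.0335 and 0.0203 CPM. The 7 endothelial markers summed to 0.965 to 1.6 and 0.866 to 1.25 CPM.

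Short stretches of sequence show a motif found before RefSeq start sites of chains of a single trimer. LAMA3 and LAMB3 encode the alpha and beta chain of laminin-332, the laminin that anchors epithelia, and their mRNAs changed in opposite directions here. The 250 bases before each start site in RefSeq (GRCh38.p14) were searched for TGANTCA, the site bound by the AP-1 factors of the FOS and JUN families, which reads the same on both strands. Of the listed genes, 24 had 1 or more start sites in the RefSeq table, 31 in all. The LAMA3 window, and among the LAMB3 windows that of the start farthest downstream, held the motif, in capitals with 10 bases on each side.

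LAMA3, motif from 125 bases before the start, plus strand, chr18:23872885-23872911: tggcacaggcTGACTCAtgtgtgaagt
LAMA3, motif from 69 bases before the start, plus strand, chr18:23872941-23872967: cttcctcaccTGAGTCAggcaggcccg
LAMB3, motif from 67 bases before the start, minus strand, chr1:209651425-209651451: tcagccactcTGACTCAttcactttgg

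TGANTCA was in 2 of the 31 windows (6.45%), against 6.57% of 35116 windows over all genes. A window with 2 or more matches, as before LAMA3, made up 0.402% of all windows. This LAMA3 start, at 23873020, lies 184 kb inside the gene as GENCODE v29 draws it. It falls within an annotated exon that runs from 23872840 to 23873215 and also holds both matches. In GENCODE v29 the LAMA3 matches are thus exonic and not upstream of that exon. The LAMB3 match lies in no annotated exon. Counts per gene do not tell which start was used.

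LAMC1 and ITGB1, which encode the most abundant gamma chain and the most abundant beta subunit and were both higher under the SMN1 label, had CG-rich upstream windows. Of the ITGB1 starts in the table, the one with the more CG-rich window is shown, up to the first base of an annotated exon. The window of the other start held 4 CG dinucleotides. As GENCODE v29 draws ITGB1, the start shown lies 47.6 kb inside the gene and the other start 70.2 kb inside it. Each window shown held 32 CG dinucleotides and 3 copies of the GC box GGGCGG (on either strand, in capitals), and neither held TGANTCA. A GC box was in 16 of the 31 windows (51.6%), against 42.6% over all genes. The median window held 10 CG dinucleotides among the 31 and 11 over all genes. CG-rich windows were not limited to genes that rose. LAMB1, which was not called, had 28 CG dinucleotides and 4 GC boxes, and LAMA5, called higher, had 32 and 5.

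LAMC1, plus strand, chr1:183023170-183023419: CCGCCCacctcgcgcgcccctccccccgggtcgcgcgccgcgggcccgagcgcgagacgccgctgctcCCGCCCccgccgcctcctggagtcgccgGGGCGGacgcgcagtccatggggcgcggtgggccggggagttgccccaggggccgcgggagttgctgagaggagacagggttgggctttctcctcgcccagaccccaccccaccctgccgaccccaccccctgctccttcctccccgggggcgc
ITGB1, minus strand, chr10:32958233-32958480: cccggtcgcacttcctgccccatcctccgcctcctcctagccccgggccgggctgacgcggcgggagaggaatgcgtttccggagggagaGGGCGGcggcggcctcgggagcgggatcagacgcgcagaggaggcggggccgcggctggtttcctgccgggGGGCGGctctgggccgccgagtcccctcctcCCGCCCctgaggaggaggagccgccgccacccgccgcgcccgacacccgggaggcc

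Of the 34 genes 25 passed the filter on low counts, 9 laminin and 16 integrin genes, and 8 of these were higher and 7 lower under the SMN1 label (edgeR adjusted p at most 0.05). That is 60% of those tested, close to the 56.2% of all genes tested. Their median log2 change was 0.02. Changes of at least 2-fold were found for 5 of the 25, LAMA3, LAMB3, ITGA5 and ITGA2B among them, where 2.96% of all tested genes were called at that size. The groups did not overlap for 16 of the 25, 8 of them higher and 8 lower, against 60.7% of all genes tested, 30.4% higher and 30.2% lower. Of the 25, 1 had a library below the filter's 0.317 CPM. The 9 genes not tested were ITGA10, ITGAL, ITGAM, ITGB2, ITGB7, ITGB8, LAMA2, LAMB4 and LAMC3, none with more than 13 reads in a library. ITGA8, ITGAD, ITGAX and ITGB6 were not analysed here.

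**Figure D1:**
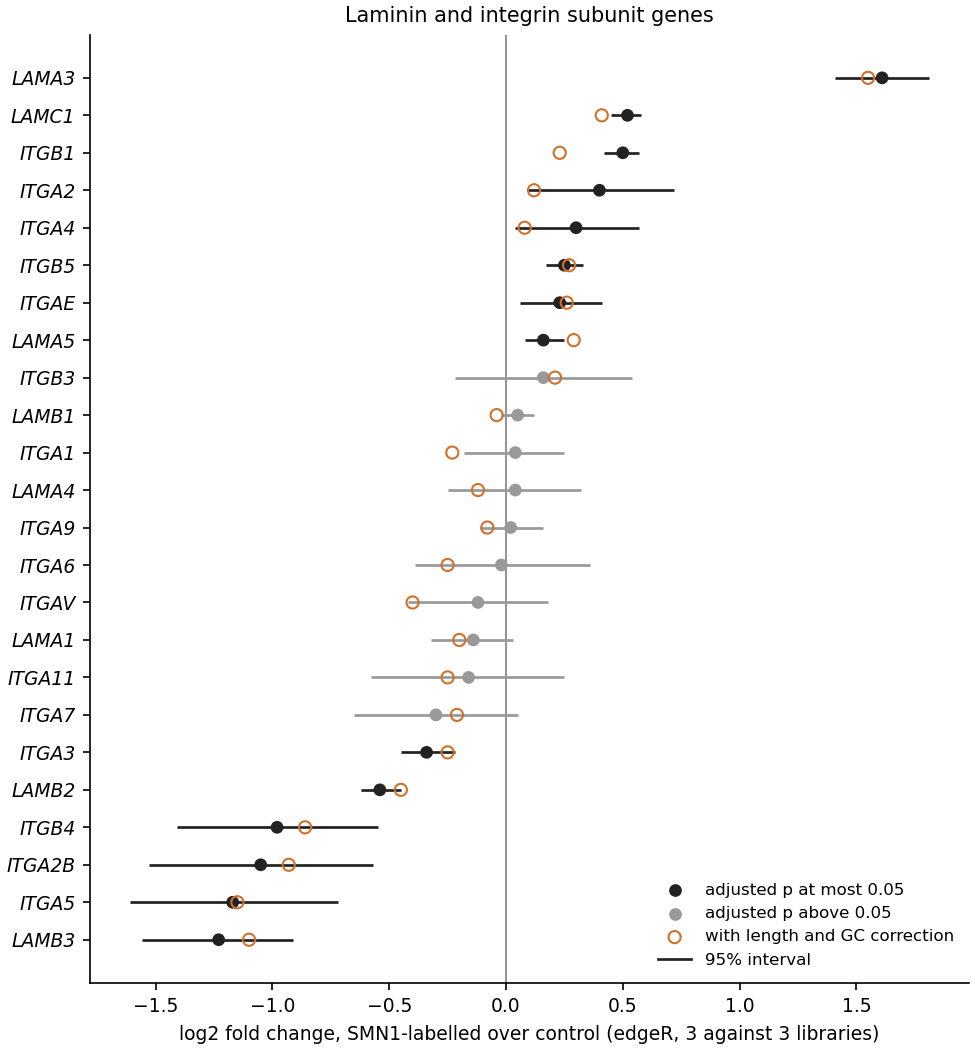
log2 change of 24 of the 25 tested laminin and integrin genes, SMN1-labelled over control libraries (filled points; bars are 95% intervals from edgeR, 3 against 3 libraries; grey where the adjusted p is above 0.05) and the same after correction for gene length and GC content (open circles). LAMA3 lies highest at 1.61 and LAMB3 lowest at -1.23, and for the called genes drawn the open circles lie on the same side of 0 as the points.

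The tested laminin and integrin genes are long, with a median exonic length of 7901 nt against 4575 nt for all genes tested. The values were also fitted with each library's trends in length and GC content removed. In that fit 6 of the 25 were higher and 8 lower, where 47.9% of all genes were called, and their median log2 change was -0.20. Corrected values are given below where they end a call, make one or change the size of a log2 change markedly.

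Among the laminin alpha chains LAMA3 and LAMA5 rose and neither LAMA1 nor LAMA4 passed the test. LAMA3, on chromosome 18 at 23689443 to 23956222 (GRCh38), was at 3.73, 3.90 and 3.27 CPM with the control plasmid and 11.4, 10.3 and 11.6 CPM under the SMN1 label. The lowest SMN1-labelled library was thus well above the highest control library. The rise was 3.04-fold (log2 change 1.61, SE 0.10, edgeR adjusted p = 2.04e-12). LAMA5 encodes the alpha chain of laminin-511 and laminin-521, widespread in adult basement membranes. Its level was 46.9, 48.2 and 46.2 CPM with the control plasmid and 55.3, 51.1 and 52.0 CPM under the SMN1 label. The groups did not overlap, and the rise was 1.12-fold (SE 0.04 on the log2 scale, edgeR adjusted p = 0.00222). Its log2 change was 0.16, and 0.29 after the length and GC correction. ADRM1 shares 1.71% of the exonic bases of LAMA5 on the opposite strand.

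LAMA1, the alpha chain of the embryonic laminin-111, was at 8.12, 7.60 and 8.86 CPM with the control plasmid and 7.47, 7.31 and 7.48 CPM under the SMN1 label. All SMN1-labelled values lay below all control values, but the difference did not pass (log2 change -0.14, 95% interval -0.32 to 0.03, edgeR adjusted p = 0.162). LAMA4, the alpha chain of vascular and peripheral nerve laminins, was at 2.70 ± 0.170 and 2.79 ± 0.276 CPM with overlapping groups (interval -0.25 to 0.32). LAMA2, the alpha chain of muscle and Schwann cell laminin, had 1 read in a single SMN1-labelled library and none elsewhere.

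Of the laminin beta chains LAMB2 and LAMB3 fell, and LAMB1, the most abundant, did not pass. LAMB1 is the beta chain of laminin-111, laminin-411 and laminin-511, and LAMB2 replaces it in laminin-521, which is found at the neuromuscular junction. LAMB1 was at 572, 584 and 581 CPM with the control plasmid and 567, 606 and 625 CPM under the SMN1 label. The groups overlapped (log2 change 0.05, 95% interval -0.02 to 0.12, edgeR adjusted p = 0.253). Without the first SMN1-labelled library LAMB1 was called higher (log2 change 0.09, edgeR adjusted p = 0.0302), as it was on log2(FPKM + 1) (limma adjusted p = 0.0321). LAMB2, on chromosome 3 at 49121114 to 49133118, was at 83.5, 84.1 and 91.1 CPM with the control plasmid and 60.3, 58.4 and 59.7 CPM under the SMN1 label. That is a fall of 1.45-fold with no overlap (log2 change -0.54, SE 0.04, edgeR adjusted p = 1.04e-10).

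LAMB3, the beta chain of laminin-332, on chromosome 1 at 209614870 to 209652466, was at 3.36, 2.85 and 3.62 CPM with the control plasmid and 1.52, 1.39 and 1.25 CPM under the SMN1 label. The groups were far apart, with a fall of 2.35-fold (log2 change -1.23, SE 0.16, edgeR adjusted p = 4.72e-07).

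LAMC1, on chromosome 1 at 183023460 to 183145592, encodes the gamma chain of most laminins, and it rose. It was at 356, 355 and 359 CPM with the control plasmid and 509, 512 and 513 CPM under the SMN1 label. Values within a group were nearly identical, and the rise was 1.43-fold (log2 change 0.52, SE 0.03, edgeR adjusted p = 2.67e-12).

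**Figure D2:**
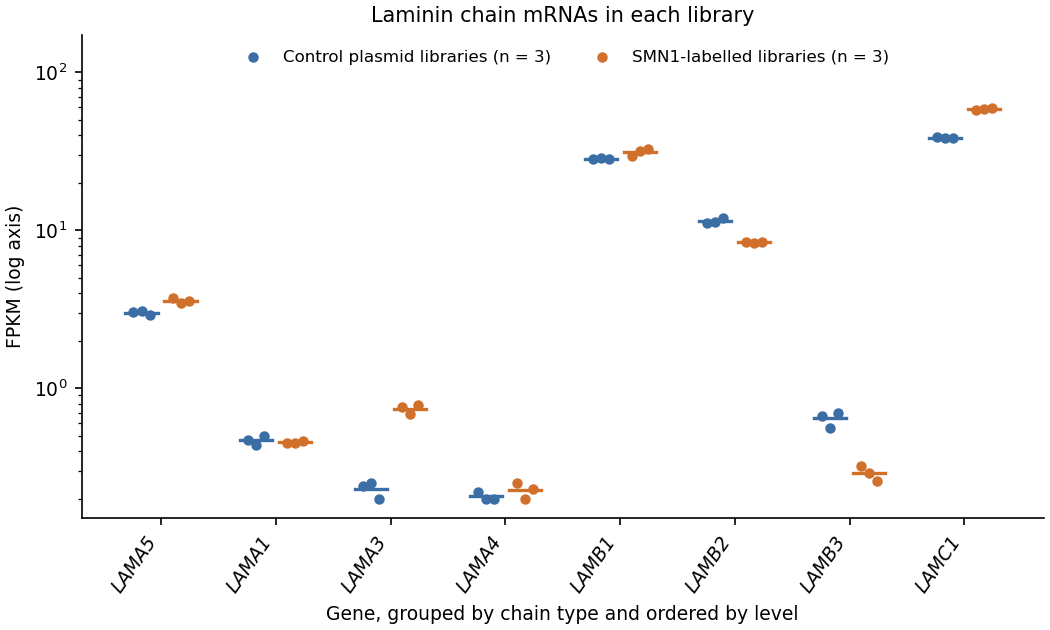
Deposited FPKM of 8 tested laminin chain genes in each library (points; log axis) with group means (lines), control plasmid in blue and SMN1-labelled in orange, n = 3 each. LAMC1 and LAMB1 stand highest, and the LAMA3 points are higher and the LAMB3 points lower in every SMN1-labelled library.

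Compared per length, on the authors' FPKM values, alpha chain mRNA was scarce beside beta and gamma chain mRNA. The length behind each FPKM, taken from CPM over FPKM, was 1.03 to 1.10 times the exonic length listed in GENCODE v29 for 21 of the 25 tested genes. For LAMB1, ITGB1, ITGB3 and ITGA4 it was 2.43, 2.57, 1.54 and 1.43 times as long (19.7 kb against 8.14 kb for LAMB1, 15.5 kb against 6.01 kb for ITGB1), so sums and shares that hold them are also given as CPM per kb of listed length, a comparison added after the data were seen. The summed level was 3.92 ± 0.0889 FPKM for alpha chains, 40.6 ± 0.343 for beta chains and 38.8 ± 0.178 for gamma chains with the control plasmid (SD, n = 3). In the SMN1-labelled libraries the sums were 5.01 ± 0.190, 40 ± 1.65 and 58.9 ± 0.548 FPKM. Per listed length the beta chain sum was 84.4 ± 1.12 CPM per kb with the control plasmid and 82.6 ± 3.5 under the SMN1 label. On FPKM the ratio of the gamma to the beta chain sum was 0.944 to 0.967 with the control plasmid and 1.43 to 1.52 under the SMN1 label. On CPM per kb of listed length it was 0.501 to 0.510 and 0.712 to 0.769, so that the ratio was higher under the SMN1 label on both scales, but the gamma sum exceeded the beta sum on FPKM only. The alpha chain had the lowest level of the 3 chains of laminin-111, laminin-411, laminin-511 and laminin-521 in all 6 libraries on both scales.

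Shares within a chain type do not depend on how libraries are scaled against each other. LAMA5 made up 76.9% ± 0.720 of the alpha chain FPKM with the control plasmid and 71.6% ± 0.788 under the SMN1 label, and LAMA3 5.86% ± 0.548 and 14.8% ± 0.637. Among beta chains LAMB1 took 70.1% ± 1.05 and 78.2% ± 1.09, and LAMB2 28.3% ± 0.897 and 21.0% ± 0.973. Per listed length LAMB1 took 84.3% ± 0.667 and 89.1% ± 0.624 and LAMB2 14.9% ± 0.581 and 10.5% ± 0.564. The groups did not overlap in any of these shares. The FPKM ratio of LAMA3 to LAMB3 was 0.358, 0.446 and 0.286 with the control plasmid and 2.38, 2.38 and 3 under the SMN1 label. The order of the 2 chains was thus reversed on this per-length scale. In CPM, not divided by length, LAMA3 was at 3.73, 3.90 and 3.27 and LAMB3 at 3.36, 2.85 and 3.62 with the control plasmid. Their order in the control group therefore depends on the lengths used.

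The most abundant integrin beta subunit genes, ITGB1 and ITGB5, rose. ITGB1, on chromosome 10 at 32900319 to 33005792, encodes the beta1 subunit, the partner of most alpha subunits and of all 4 collagen-binding ones. It was at 124, 126 and 124 CPM with the control plasmid and 168, 177 and 181 CPM under the SMN1 label. Every SMN1-labelled library was higher, by 1.41-fold on average (log2 change 0.50, SE 0.04, edgeR adjusted p = 5.06e-11). After the length and GC correction the log2 change was 0.23 (adjusted p = 2.85e-06). ITGB5 encodes a partner of the alpha V subunit in a vitronectin receptor. Its levels were 48.6, 48.5 and 47.9 CPM and 58.7, 57.3 and 56.4 CPM, a rise of 1.19-fold without overlap (SE 0.04 on the log2 scale, edgeR adjusted p = 1.03e-05).

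ITGB4, whose subunit pairs with alpha6 to bind laminin-332 in hemidesmosomes, fell. It was at 1.50, 2.23 and 1.69 CPM with the control plasmid and 0.776, 0.986 and 0.973 CPM under the SMN1 label. The groups did not overlap despite the wide spread in the control group, and the fall was 1.97-fold (log2 change -0.98, SE 0.21, edgeR adjusted p = 3.17e-04). ITGB3, the beta subunit of the platelet fibrinogen receptor, was at 1.48 ± 0.0211 and 1.64 ± 0.303 CPM with overlapping groups (95% interval of the log2 change -0.22 to 0.54). It shares 51.6% of its exonic bases with AC068234.1 on the same strand, which had at most 1 read in a library. ITGB2, the beta subunit of leukocyte integrins, had at most 13 reads in a library.

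Most of the tested epithelial markers fell, as did LAMB3 and ITGB4. LAMA3, from the same trimer as LAMB3, rose 3.04-fold, and ITGA6, whose subunit pairs with beta4, did not pass (log2 change -0.02). In bulk RNA, fewer cells of a type and less RNA per cell cannot be told apart. Of 9 such markers 7 were tested, 5 fell and none rose, and their summed level was 29.5 to 31.0 CPM with the control plasmid and 12.7 to 13.4 CPM under the SMN1 label. The keratin genes KRT18 (15.1 ± 0.644 to 5.68 ± 0.133 CPM), KRT8, KRT19 and KRT5 fell 2.66-, 3.24-, 2.11- and 3.66-fold (edgeR adjusted p from 3.92e-13 to 4.78e-07). EPCAM, at 2.56 ± 0.377 and 2.13 ± 0.192 CPM, and CLDN4 (log2 change 0.10) were not called (edgeR adjusted p = 0.162 and 0.846). The defining basal marker TP63 was at 0 and 0.00995 CPM and CDH1, the epithelial cadherin, at 0.157 and 0.0484 CPM. Of 10 tested mesenchymal-type neuroblastoma markers 7 fell and none rose, VIM 2.04-fold, with sums of 977 to 1012 and 712 to 782 CPM. Most of these sums was TWIST1, at 704 ± 17.7 and 565 ± 37 CPM. Its log2 change went from -0.32 to -0.05 with the length and GC correction, where it was not called (edgeR adjusted p = 0.258). Of 9 fibroblast markers 6 were tested, 3 fell, COL1A1 2.94-fold and COL3A1 2.58-fold among them, and PDGFRA rose (log2 change 0.51, or 0.26 after the length and GC correction). Of 4 tested Schwann cell markers 3 fell, with sums of 23.2 to 24.9 and 17.3 to 21.3 CPM. Over all genes tested 28.2% were called lower and 28.0% higher. After the length and GC correction 5 epithelial, 8 mesenchymal-type, 2 fibroblast and 3 Schwann cell markers were lower and 1 fibroblast marker higher. In that fit 25.1% of all genes were lower, and the log2 change of KRT19 went from -1.08 to -0.79. Whether these short lists differ from all genes was not tested, nor was the part of these markers in the laminin and integrin results.

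Among the integrin alpha subunits that bind laminin, ITGA3 fell and neither ITGA6 nor ITGA7 passed the test. ITGA3, on chromosome 17 at 50055968 to 50090481, was the most abundant alpha subunit per length. It was at 36.6, 38.0 and 34 CPM with the control plasmid and 29.4, 30.4 and 26.1 CPM under the SMN1 label. The groups did not overlap, and the fall was 1.26-fold (log2 change -0.34, SE 0.06, edgeR adjusted p = 1.51e-05). ITGA6, the partner of both beta1 and beta4, was at 1.98 ± 0.462 and 1.94 ± 0.262 CPM (95% interval of the log2 change -0.39 to 0.36). For ITGA7, a laminin receptor of muscle and of regrowing axons, the levels were 2.73 ± 0.420 and 2.21 ± 0.559 CPM (interval -0.65 to 0.05). ITGA7 was called lower without the first SMN1-labelled library (log2 change -0.46, edgeR adjusted p = 0.0404).

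Of the alpha subunits that bind the RGD peptide motif of fibronectin and vitronectin, ITGA5 and ITGA2B fell. ITGA5 encodes the fibronectin receptor subunit and lies on chromosome 12 at 54395261 to 54419460. Its levels were 1.43, 1.70 and 1.62 CPM with the control plasmid and 0.806, 0.673 and 0.639 CPM under the SMN1 label. With no overlap between groups it fell 2.24-fold (log2 change -1.17, SE 0.21, edgeR adjusted p = 5.89e-05). ITGA2B, the platelet fibrinogen receptor subunit, was at 1.33, 2.23 and 1.52 CPM and at 0.776, 0.673 and 1.03 CPM, a 2.07-fold fall (SE 0.23 on the log2 scale, edgeR adjusted p = 5.04e-04). That call was lost with limma on unfiltered log2(FPKM + 1) values (adjusted p = 0.0661). ITGAV, the alpha V subunit, was at 2.48 ± 0.134 and 2.29 ± 0.147 CPM and did not pass (log2 change -0.12, edgeR adjusted p = 0.506). After the length and GC correction it was called lower (log2 change -0.40, adjusted p = 0.0245).

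Changes among the remaining alpha subunits were small. ITGA2, a collagen receptor subunit, was at 2.12 ± 0.302 and 2.82 ± 0.287 CPM, a log2 change of 0.40 with an SE of 0.15 (edgeR adjusted p = 0.0271). ITGA4, a receptor subunit for fibronectin and VCAM1, was at 2.75 ± 0.186 and 3.40 ± 0.127 CPM, a log2 change of 0.30 with an SE of 0.13 (edgeR adjusted p = 0.0454). Both were called higher, but not after the length and GC correction (adjusted p = 0.530 and 0.618) or with DESeq2 (0.0790 and 0.139). The ITGA2 call also needed the first and the third control library and the third SMN1-labelled library, and failed without each (edgeR adjusted p = 0.0531, 0.132 and 0.109). For ITGA4 the call was lost without any one SMN1-labelled library (0.0880, 0.113 and 0.0523) and without the first or the third control library (0.0798 and 0.146).

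ITGAE, whose subunit pairs with beta7 to bind E-cadherin on lymphocytes, was at 8.19 ± 0.632 and 9.61 ± 0.585 CPM and was called higher (log2 change 0.23, SE 0.08, edgeR adjusted p = 0.0213). That call was lost with DESeq2 (adjusted p = 0.0651), without the first or the third control library (edgeR adjusted p = 0.0559 and 0.105) and without the second SMN1-labelled library (0.119). HASPIN, on the opposite strand, shares 6.41% of the exonic bases of ITGAE, and whether counting used strand was not given in the sources used here. The gene of its partner, ITGB7, had at most 5 reads in a library. ITGA9, a receptor subunit for tenascin C and VCAM1, was at 18.3 ± 1.48 and 18.7 ± 0.710 CPM (95% interval of the log2 change -0.11 to 0.16). The collagen receptor genes ITGA1, at 5.50 ± 0.563 and 5.63 ± 0.319 CPM, and ITGA11, at 1.31 ± 0.0560 and 1.16 ± 0.161 CPM, did not pass either (edgeR adjusted p = 0.785 and 0.507). PELO lies within ITGA1 on the same strand and shares 2.56% of its exonic bases, and ITGA9-AS1 shares 6.46% of those of ITGA9 on the opposite strand, so these counts are uncertain.

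**Figure D3:**
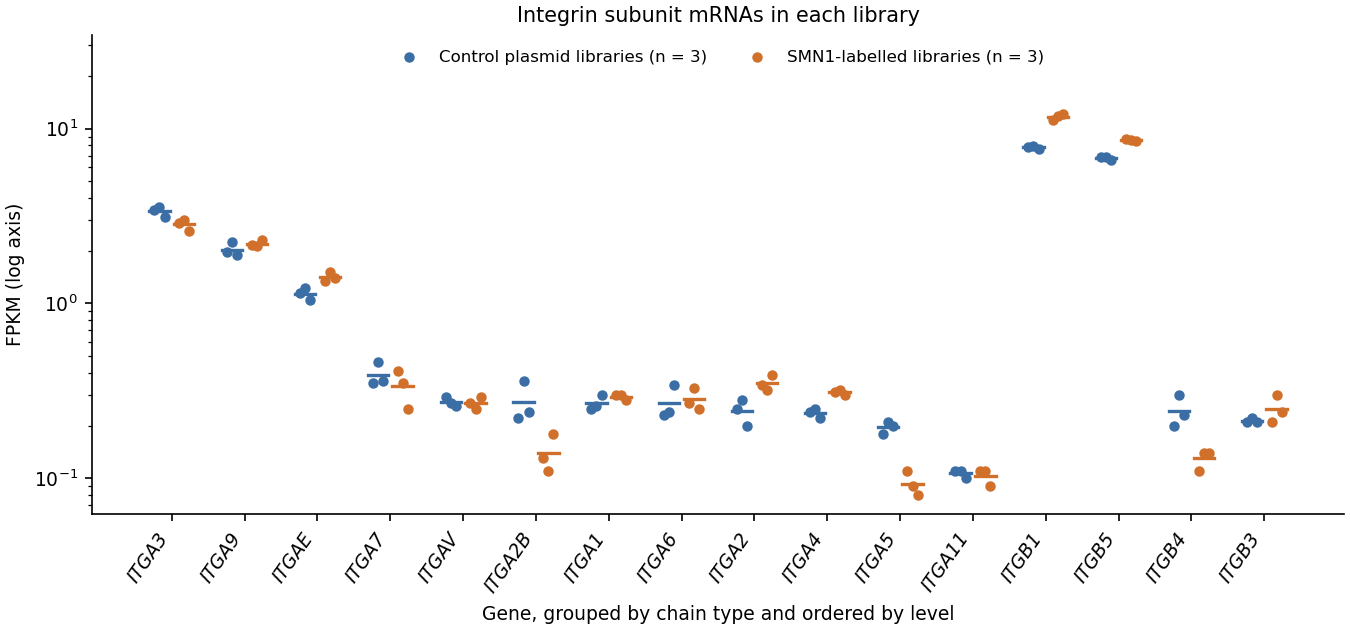
Deposited FPKM of the 16 tested integrin subunit genes in each library (points; log axis) with group means (lines), control plasmid in blue and SMN1-labelled in orange, n = 3 each. ITGB1 and ITGB5 stand highest, ITGA3, ITGA9 and ITGAE lead the alpha subunits, and the ITGA5, ITGA2B and ITGB4 points are lower in every SMN1-labelled library.

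Per length, the alpha subunits summed to 8.82 ± 0.626 FPKM with the control plasmid and 8.65 ± 0.220 FPKM under the SMN1 label. That difference is within their spread. Per listed length the alpha sum was lower under the SMN1 label without overlap, at 9.27 to 10.4 against 8.72 to 9.23 CPM per kb. The beta subunits summed to 15.1 ± 0.277 and 20.7 ± 0.416 FPKM, and per listed length to 28.8 ± 0.266 and 38.7 ± 0.979 CPM per kb. The ratio of beta to alpha subunits was 1.61 to 1.78 with the control plasmid and 2.34 to 2.50 under the SMN1 label, and per listed length 2.79 to 3.09 and 4.15 to 4.52. ITGA3 made up 38.3% ± 1.14 of alpha subunit FPKM with the control plasmid and 32.8% ± 1.66 under the SMN1 label. Per listed length its share was 37.9% ± 1.13 and 32.4% ± 1.63. ITGB1 took 51.7% ± 0.0542 and 56.5% ± 1.34 of the beta subunit FPKM, and ITGB5 45.0% ± 0.411 and 41.4% ± 1.48. Per listed length ITGB1 took 71.7% ± 0.0645 and 75.5% ± 0.993 and ITGB5 26% ± 0.244 and 23.1% ± 1.07, so the direction was the same and the split between them was not.

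**Figure D4:**
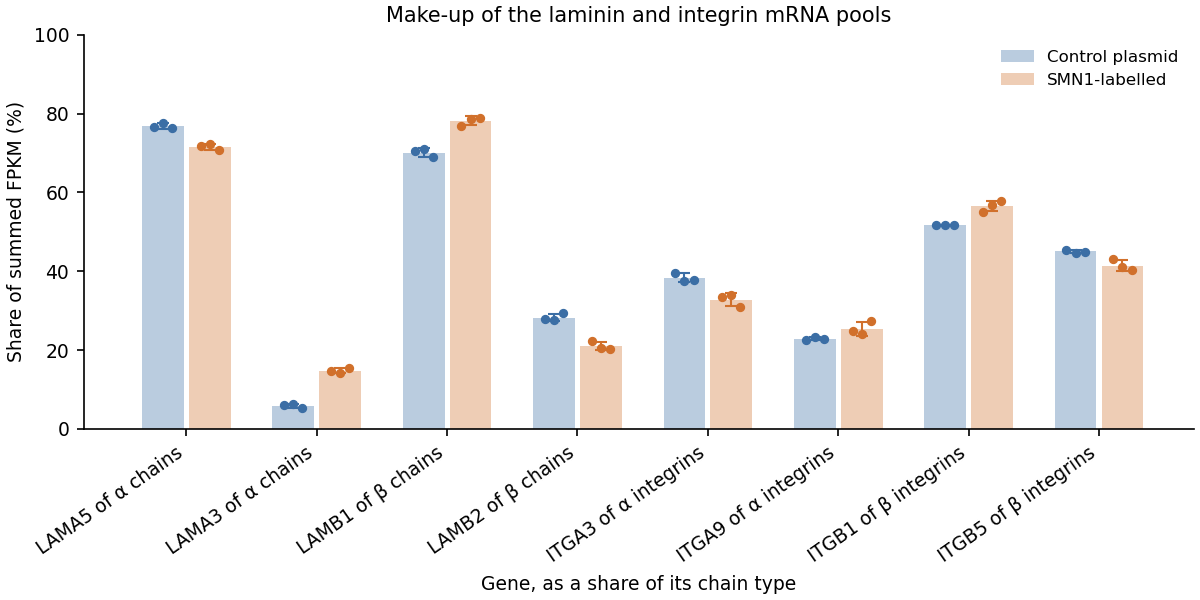
Share of each gene in the summed FPKM of its chain type, in percent (points are libraries, bars group means with SD, n = 3; control plasmid in blue, SMN1-labelled in orange). LAMA3 goes from 5.86% to 14.8% of the alpha chains and LAMB1 from 70.1% to 78.2% of the beta chains, or 84.3% to 89.1% per listed length.

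Of the 9 tested laminin genes 3 rose and 3 fell, with a median log2 change of 0.04, and of the 16 tested integrin genes 5 rose and 4 fell, with a median of 0.00. The laminin genes summed to 83.3 ± 0.276 FPKM with the control plasmid and 104 ± 2.08 FPKM under the SMN1 label, and the integrin genes to 23.9 ± 0.891 and 29.4 ± 0.411 FPKM. Per listed length the laminin sums were 131 ± 1.33 and 149 ± 3.6 CPM per kb, and the integrin sums 38.6 ± 0.885 and 47.7 ± 0.9. The ratio of the FPKM sums was 3.49 ± 0.121 and 3.54 ± 0.0486, a difference smaller than the spread. Per listed length it was 3.32 to 3.50 with the control plasmid and 3.10 to 3.15 under the SMN1 label, without overlap. Most of both rises lay in 1 gene each. Without LAMC1 the laminin sum was 44.7 ± 0.327 and 45.1 ± 1.54 FPKM, and without ITGB1 the integrin sum was 16.1 ± 0.749 and 17.6 ± 0.299 FPKM. Per listed length these were 88.9 ± 1.13 and 87.8 ± 3.35 CPM per kb for laminins and 17.9 ± 0.683 and 18.5 ± 0.394 for integrins. FPKM summed over all genes was lower under the SMN1 label (279882 ± 493 against 310427 ± 2911), and on log2(FPKM + 0.1) 63.1% of all calls were higher, against 49.8% on counts. On that scale 6 of the 11 laminin and integrin genes that passed its filter were higher and 3 lower.

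Of the other basement membrane genes 14 were tested, and under the SMN1 label 6 fell and 2 rose, with a median log2 change of -0.18. The called share was 57.1%, against 56.2% of all genes tested (28.2% lower and 28.0% higher). After the length and GC correction 5 were lower and 2 higher, with a median of -0.08, where 47.9% of all genes were called. HSPG2, which encodes the heparan sulfate proteoglycan perlecan, fell 1.66-fold (11.1 ± 0.464 to 6.71 ± 0.674 CPM, edgeR adjusted p = 1.13e-07). NID1, whose product nidogen links laminin to collagen IV by binding the LAMC1 chain, fell 1.52-fold (31.6 ± 1.98 to 20.8 ± 0.380 CPM), and SPARC, a collagen-binding matrix protein, also 1.52-fold. The collagen IV chain genes COL4A1 and COL4A2, which make up 1 trimer, were at 74.9 ± 1.81 and 80.9 ± 4.09 CPM and at 178 ± 3.21 and 159 ± 2.10 CPM. COL4A1 was called higher (edgeR adjusted p = 0.0277), a call held by 12 of 17 alternatives and lost with DESeq2 (adjusted p = 0.0600), with upper-quartile factors (0.0570), and without the third control library (0.107) or the first or the third SMN1-labelled library (0.0894 and 0.0960). COL4A2 was called lower (2.36e-04), but not after the length and GC correction (0.224) or with limma on FPKM (0.117 to 0.148). FRAS1, a large matrix protein of embryonic epithelial basement membranes, rose 1.62-fold (35.4 ± 0.597 to 57.5 ± 1.99 CPM, edgeR adjusted p = 2.46e-12).

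Of the ligands that integrins bind outside the laminin family 28 were tested, and 13 fell and 4 rose, with a median log2 change of -0.13. These are 60.7% of those tested, against 56.2% of all genes. With the length and GC correction 10 were lower and 3 higher, and the median was -0.06. TNR, which encodes the neural matrix protein tenascin R, fell 3.85-fold (17.9 to 19.9 against 4.36 to 5.96 CPM, edgeR adjusted p = 1.91e-14). CCN1, a secreted ligand of alpha V and alpha6 integrins, fell 2.38-fold, while its relative CCN2 rose 1.54-fold (2.62 ± 0.376 to 4.01 ± 0.415 CPM). FN1, fibronectin, the ligand of the ITGA5 subunit, fell 1.27-fold (65.5 ± 1.95 to 51.6 ± 2.51 CPM), and TNC, a ligand of the ITGA9 subunit, fell 1.24-fold. With the length and GC correction the log2 change of FN1 went from -0.35 to -0.59. JAM3, a junctional adhesion molecule, rose 1.29-fold. ADAM9 and F11R were called higher, but not after the length and GC correction (adjusted p = 0.988 and 0.223).

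Laminin receptors outside the integrin family split, with 3 of 12 tested higher and 5 lower (median log2 change -0.03). The called share was 66.7%, against 56.2% of all genes tested. Counts with the length and GC correction were again 3 higher and 5 lower, with a median of -0.11. SDC2 and SDC1, heparan sulfate proteoglycans of the cell surface, rose 1.31-fold (108 ± 2.97 to 141 ± 5.08 CPM) and 1.15-fold. The sarcoglycan gene SGCB was called higher (1.22-fold), but not after the length and GC correction. With that correction the log2 change of SDC2 went from 0.39 to 0.23 and that of SDC1 from 0.20 to 0.40. SDC4, a relative of SDC1 and SDC2 in focal adhesions, fell 1.65-fold (5.15 ± 0.887 to 3.14 ± 0.350 CPM). The galectin gene LGALS1 fell 2.03-fold (22.7 ± 0.411 to 11.2 ± 0.485 CPM) and MCAM 1.29-fold, the log2 change of LGALS1 going from -1.02 to -0.66 with the correction. RPSA, a ribosomal protein that also serves as a laminin receptor, fell 1.34-fold. Many processed pseudogenes resemble it, so its reads may be shared with them. Dystroglycan binds laminin through a sugar chain that a set of enzymes builds. Of 16 such enzyme genes tested 3 rose and 2 fell, 31.2% against the 56.2% of all genes tested. With the length and GC correction 5 were higher and 2 lower. POMK, the kinase that prepares the chain for extension, rose 1.6-fold (42.9 ± 0.409 to 68.5 ± 2.11 CPM, edgeR adjusted p = 2.02e-12), and B3GALNT2 1.36-fold. DPM3 and DPM2, subunits of the enzyme that makes the mannose donor, fell 2.13- and 1.23-fold, DPM2 not after the length and GC correction (0.109). With it the log2 change of B3GALNT2 went from 0.44 to 0.21 and that of DPM3 from -1.09 to -0.71.

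Membrane proteins that sit beside integrins split as 8 of 14 tested lower and 1 higher (median log2 change -0.23). The called share was 64.3%, against 56.2% of all genes tested. With the length and GC correction 7 were lower and none higher, and the median was -0.12. BSG, which encodes basigin, fell 1.34-fold (453 ± 10.1 to 338 ± 10.6 CPM), PLAUR, the urokinase receptor, 1.42-fold, CD44, the hyaluronan receptor, 1.47-fold and SLC3A2, the heavy chain of CD98, 1.21-fold (edgeR adjusted p from 3.40e-10 to 1.11e-05). With the length and GC correction the log2 change of BSG went from -0.42 to -0.22 and that of SLC3A2 from -0.27 to -0.18. The 1 gene called higher was CD46, at 9.41 ± 0.399 and 12.8 ± 0.858 CPM, and it was not called after the length and GC correction (adjusted p = 0.0805).

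Inside the cell, of 33 tested integrin adaptors and activators 15 fell and 8 rose, 69.7% against the 56.2% of all genes tested. TLN1, which encodes talin, the protein that switches integrins on by binding the beta tail, fell 1.27-fold (342 to 349 against 271 to 274 CPM, edgeR adjusted p = 3.61e-09). The tensin genes TNS1 and TNS3 fell 1.42- and 1.79-fold, and SHARPIN, an inhibitor of integrin activation, 1.35-fold. TES, a LIM protein of focal adhesions, rose 1.47-fold (172 ± 2.14 to 252 ± 5.88 CPM), and ENAH, an actin polymerisation factor, 1.38-fold. FERMT2, which encodes kindlin-2, and RAP1B rose 1.26- and 1.28-fold, calls that did not hold after the length and GC correction (adjusted p = 0.394 and 0.104). With that correction the log2 change of ENAH went from 0.46 to 0.19 and that of SHARPIN from -0.43 to -0.14, both still called, and 2 adaptors were higher and 16 lower.

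Of 30 tested focal adhesion kinase and signalling genes 16 rose and 3 fell, with a median log2 change of 0.13. The called share was 63.3%, against 56.2% of all genes tested, of which 28.0% were higher and 28.2% lower. PTK2, focal adhesion kinase itself, rose 1.32-fold (76.8 ± 3.46 to 102 ± 3.42 CPM, edgeR adjusted p = 1.00e-08). The adaptor CRK rose 1.61-fold (31.3 ± 1.06 to 50.4 ± 2.62 CPM), the phosphatase gene PTPN11 1.39-fold and the exchange factor gene ARHGEF7 1.32-fold. RHOA, a GTPase that drives stress fibre contraction, fell 1.15-fold and ELMO1 1.17-fold. CDC42, at 110 ± 2.03 and 103 ± 3.31 CPM, was called lower (edgeR adjusted p = 0.0228), a call held by 9 of 17 alternatives. With the length and GC correction the log2 changes of PTK2 and PTPN11 went from 0.40 to 0.20 and from 0.48 to 0.22, both still called, and that of CDC42 from -0.10 to -0.21. After the length and GC correction 11 were higher and 6 lower, and the median log2 change was 0.00. Over all 147 tested genes of these related lists 37 rose and 52 fell, 60.5%, against the 56.2% of all genes tested.

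**Figure D5:**
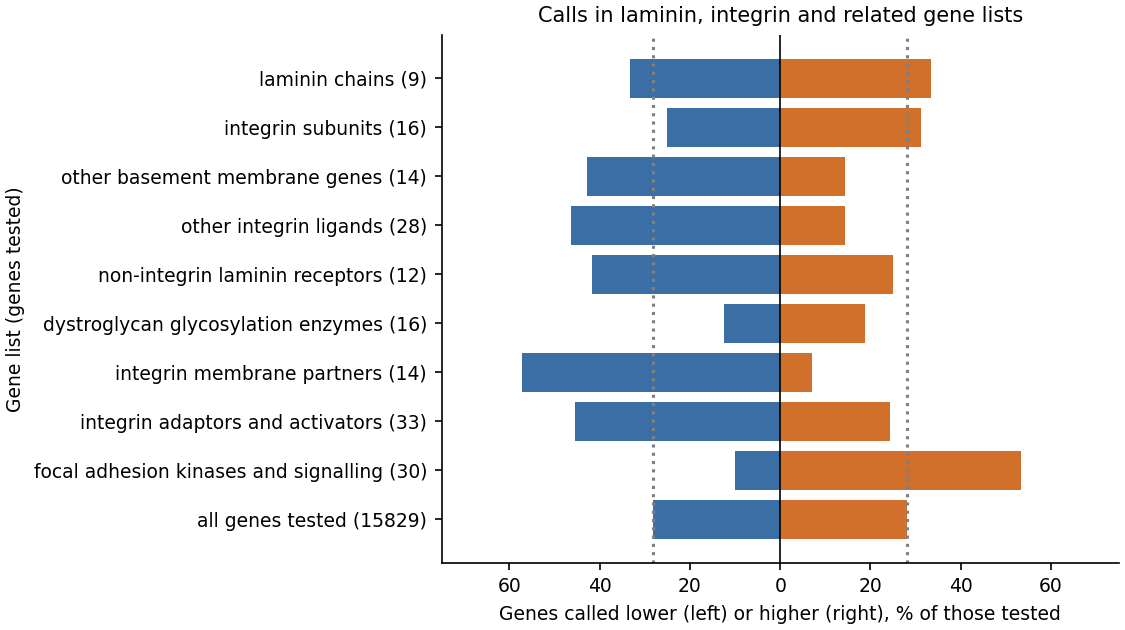
Percentage of tested genes called higher (right, orange) or lower (left, blue) under the SMN1 label for laminins, integrins and 7 related lists, with the number tested in parentheses and the values over all genes as dotted lines (28.0% higher, 28.2% lower). Focal adhesion kinase and signalling genes have 16 of 30 on the right, and membrane partners 8 of 14 on the left.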

How the data were processed

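Per the labels' protocols, total RNA of 6 SH-SY5Y samples was made into stranded mRNA libraries and sequenced as paired reads of 150 nt. Reads were aligned to GRCh38 with HISAT2, and DESeq2 was used, per the submitters' processing notes. No counting tool or strand setting is named, so both count as not given in the sources used here. The authors deposited whole-number read counts for 28862 genes, without normalization, and FPKM values for 28501 genes, scaled by gene length and depth and rounded to 2 decimals.

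Samples were grouped by title. Counts were tested in R 4.3.3 by edgeR 4.0.16 (filterByExpr, TMM factors, quasi-likelihood fit with group as the only term, two-sided, Benjamini-Hochberg over the 15829 genes tested, calls at 0.05). Each SE is |log2 fold change| divided by the root of the F statistic. Totals of 30379242 to 40275498 reads set the precision: 3 reads, the upper limit where 0 are seen, are 0.0745 to 0.0988 CPM, for counting error only. Counts of replicates differed beyond sampling noise, with 2.41 to 4.12 as chi-square over its degrees of freedom.

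Lengths, GC content and coordinates came from GENCODE v29. These listed lengths, which differ from those behind the FPKM for some genes, were used in the correction. The correction removed splines with 5 degrees of freedom in each of log length and GC content within a library, for 15663 genes. Of 277 list genes 265 were matched by symbol. The listed laminin and integrin genes are named, with SMN1 and, from each other list, up to 4 called genes in each direction in order of p at 1 CPM or more in a group. Of these, some are given only in counts, and a few are not reported here and are left out of the plots, though counts and sums include them. Single genes named beyond this rule (TH, PTPRC, TP63, CDH1, EPCAM, CLDN4, HASPIN) were chosen after their values were seen. The laminin and integrin genes and the lists were chosen with earlier results of these data known. Alternatives were DESeq2 1.42.0, other scalings and filters, a replicate block, limma 3.58.1 on log2(FPKM + 0.1) and log2(FPKM + 1), and leaving out each library. The fits were tested on simulated counts.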

Additional observations from a re-analysis of the deposited data

How the results depend on the processing

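Of the 15 laminin and integrin genes called, 10 kept call and direction in every one of the up to 17 alternatives that gave them a value, and none changed sign. The exceptions were ITGA2, ITGA3, ITGA4, ITGAE and ITGA2B. ITGA3 lost its call with limma on unfiltered log2(FPKM + 1) values (adjusted p = 0.0560). ITGA4 also lost it with upper-quartile factors (0.0573) and without a filter on low counts (0.0530). The number higher, 8, was 5 with DESeq2 and 5 to 8 when a library was left out, with 5 without the first or the third control library. The number changed was 9 on log2(FPKM + 0.1), and the number lower was 3 on log2(FPKM + 0.1) and 3 on log2(FPKM + 1), where the filter left 11 of these genes. Among all genes, the number of genes lower was 4466 on counts, against 2848 on log2(FPKM + 0.1), 2938 on log2(FPKM + 1) and 2937 on the latter without a filter. The cause was not tested. GATA3, called lower, had a log2 fold change of 0.01 with the length and GC correction, and 0.01 with that correction and the replicate block.

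No pairing by replicate number was seen in the counts. Deviations of same-numbered libraries correlated at 0.00528, 0.0133 and 0.003 across genes, and not every library correlated best with its own number. These values cannot tell whether samples were handled in pairs. With the replicate block 14 laminin and integrin genes were called, 7 higher and 7 lower, and 8708 genes in all, against 8892 without it. ITGA4 was the gene that lost its call (adjusted p = 0.0555). The 9 genes with at most 13 reads in a library could not be tested at this depth.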
